A study of Mus musculus with 22 samples.

Results

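Transcript levels in the left ventricle of wild-type (WT) FVB mice were compared between 5 weeks and 2 weeks of transverse aortic constriction (TAC). TAC narrows the aortic arch with a ligature, so that the left ventricle must pump against a raised pressure. The members are the 4 libraries labelled WT 5 weeks TAC and the 4 labelled WT 2 weeks TAC, 8 of the 22 libraries of the series, and they were chosen by those labels alone. The mice were 3 to 5 months old and, in these 2 groups, carried no transgene by their labels. For reference, 3 libraries of 5 weeks TAC and 3 of 2 weeks TAC came from mice that carry a VCP transgene (VCP TG), and 4 libraries came from WT mice at 2 weeks after a sham operation. The series asks how VCP, an ATPase that pulls ubiquitinated proteins out of complexes and membranes, bears on cardiac hypertrophy and dysfunction. The promoter that drives the transgene, the sex of the mice and whether any RNA was pooled are not given in the sources used here.

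A heart under sustained pressure load first thickens its wall and may later dilate and fail. Cardiomyocytes then use fetal forms of contractile proteins and make natriuretic peptides, fibroblasts lay down collagen, and fatty acid oxidation and the respiratory chain often lose capacity. Immediate early genes are transcription factors and feedback inhibitors whose transcripts appear within minutes of a stimulus and decay quickly. Stretch and growth factors are such stimuli in the heart.

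The 5-week and the 2-week libraries were deposited as separate tables, so time after surgery and table cannot be told apart in any value here. Both tables list the same 30735 Ensembl genes in transcripts per 1000000 (TPM), a share of each library corrected for transcript length, and the number of reads behind a value is unknown. Mitochondrially encoded genes took 54.4% ± 1.17 of TPM at 5 weeks, 57.2% ± 2.53 at 2 weeks and 50.7% ± 4.52 in sham hearts (SD, n = 4 each). Values below are rescaled TPM, in which the nuclear protein-coding genes of each library sum to 1000000. Log2 fold changes are 5 weeks over 2 weeks on log2(rescaled TPM + 1), with standard errors, and understate the change of low genes. Adjusted p-values are from limma over 10886 genes, with Benjamini-Hochberg adjustment and a threshold of 0.05.

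Some libraries stood apart from their group. The library labelled WT 5 weeks TAC 4 held the Y-linked transcript Ddx3y at 0.683 TPM, against 42.1 to 54.2 TPM in the other libraries of 5 weeks and 46.0 to 51.3 TPM at 2 weeks. The library labelled WT 2 weeks TAC 1 had a ratio of the atrial light chain Myl7 to the ventricular light chain Myl2 of 0.504, against 0.000634 to 0.00612 in the other libraries of 2 weeks. The 14 atrial markers in the tables, of which 11 passed the filter on low values, summed to between 263 and 1312 TPM at 5 weeks and between 243 and 28416 TPM at 2 weeks, the highest in that library. Vcp itself stood at 180, 335, 354 and 170 TPM in the libraries labelled WT 5 weeks TAC and at 345, 145, 148 and 148 TPM in those labelled WT 2 weeks TAC. Sham WT hearts held 162 to 204 TPM of Vcp, and the VCP TG libraries held 114 to 341 TPM at 5 weeks and 259 to 356 TPM at 2 weeks. Libraries 2 and 3 of 5 weeks and library 1 of 2 weeks therefore carried Vcp at the level of the transgenic group, against their WT label. Results for Ces5a, the immediate early genes, the respiratory chain, the matrix, hypertrophy markers and natriuretic peptides are also given without some of these libraries. Most other results, the genotype difference among them, are given with all libraries only.

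Ces5a was the single gene that passed the adjusted test, and it was higher at 5 weeks. It encodes a secreted carboxylesterase, an enzyme that splits ester bonds, best known from the epididymis and kidney of cats and other mammals. Ces5a (ENSMUSG00000058019, GRCm38 chromosome 8, 93499064 to 93535830, minus strand) stood at 21.8, 27.3, 21.8 and 16.6 TPM at 5 weeks, against 6.61, 4.83, 7.53 and 6.05 TPM at 2 weeks. The groups did not overlap, and every 5-week library lay above every 2-week library. The means were 21.9 ± 4.34 TPM at 5 weeks and 6.26 ± 1.13 TPM at 2 weeks, with 3.54 ± 2.68 TPM in sham hearts (SD, n = 4 each). The log2 fold change was 1.65 ± 0.18, with an adjusted p of 0.0249 from limma. The call was lost when any of 6 of the 8 libraries was left out, with adjusted p between 0.0583 and 0.176, while the log2 fold change stayed between 1.54 and 1.77 over all 8 omissions. It was also lost without the 3 libraries whose Vcp went against the label (1.51, adjusted p = 0.440), and kept without WT 5 weeks TAC 4 and WT 2 weeks TAC 1 together (1.80, adjusted p = 0.0149). Other settings that ended the call of Ces5a were no filter (adjusted p = 0.0520), a filter on 5 deposited TPM (0.0534), median-of-ratios scaling (0.0862), quantile normalization (0.0968), TPM as deposited (0.225), a replicate block (0.259) and a fit over all 22 libraries (0.422), with log2 fold changes of 1.38 to 1.65. In VCP TG hearts Ces5a was already high at 2 weeks, at 25.6 ± 6.51 TPM at 5 weeks and 20.2 ± 7.04 TPM at 2 weeks (SD, n = 3 each), a log2 fold change of 0.35 ± 0.25.

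The 1 gene called higher was 0.00919% of the 10886 tested, and 0 genes (0%) were called lower. At an unadjusted p under 0.05, which carries no control for the number of genes, 1119 genes (10.3%) were higher and 560 (5.14%) were lower. Groups that did not overlap were found for 646 genes (5.93%) on the higher side and 166 (1.52%) on the lower. Of the 10886 genes, 6699 had a log2 fold change above 0 and 4187 below it. The median log2 fold change of all genes tested was 0.08. With median-of-ratios scaling this median was 0.01, and 764 genes (7.02%) were higher and 924 (8.49%) lower at an unadjusted p under 0.05, so the balance of directions depends on the scaling. Counts of list members below are at the unadjusted p and are read against these shares. For every gene named from here on, the adjusted p in the test of all 8 libraries was 0.243 or more.

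The promoters of Ces5a and of 2 immediate early genes, Dusp1 and Zfp36, are shown because Ces5a is the gene called and the other 2 hold a stimulus-response motif. Each is the RefSeq window on GRCm38.p6 from 250 bases before to 50 after the start, written 5′ to 3′ on the minus strand. Capitals mark a cyclic AMP response element (TGACGTCA) in Dusp1 and a CArG box, the site of serum response factor, in Zfp36.
Ces5a, chr8:93535791-93536090: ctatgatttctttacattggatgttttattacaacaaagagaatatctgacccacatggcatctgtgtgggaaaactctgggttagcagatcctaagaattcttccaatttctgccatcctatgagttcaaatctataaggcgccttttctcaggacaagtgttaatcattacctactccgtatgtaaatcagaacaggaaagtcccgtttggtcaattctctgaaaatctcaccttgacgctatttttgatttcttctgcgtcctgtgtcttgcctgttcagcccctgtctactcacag
Dusp1, chr17:26508423-26508722: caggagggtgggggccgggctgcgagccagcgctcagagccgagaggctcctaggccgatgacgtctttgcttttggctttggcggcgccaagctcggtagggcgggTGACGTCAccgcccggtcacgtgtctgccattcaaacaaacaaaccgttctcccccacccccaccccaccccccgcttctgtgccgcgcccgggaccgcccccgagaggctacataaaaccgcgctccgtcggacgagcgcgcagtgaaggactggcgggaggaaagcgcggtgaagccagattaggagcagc
Zfp36, chr7:28379179-28379478: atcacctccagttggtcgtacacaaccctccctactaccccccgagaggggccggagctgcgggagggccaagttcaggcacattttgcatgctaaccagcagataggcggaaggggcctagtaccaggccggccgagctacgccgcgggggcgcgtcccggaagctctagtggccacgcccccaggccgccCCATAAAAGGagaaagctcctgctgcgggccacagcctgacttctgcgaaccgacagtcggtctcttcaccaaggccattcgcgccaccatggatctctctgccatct
The response element in Dusp1 begins 143 bases before the start, and the CArG box in Zfp36 begins 58 bases before it. Both motifs were searched on both strands, which read the same. The response element was found in 3 of the 24 immediate early genes with an entry (12.5%; Btg2, Dusp1 and Maff), against 2.03% of all 27025 genes with one. The CArG box was found in 2 of the 24 (8.33%, Dusp5 and Zfp36), against 1.81% of all genes. Myc, Ier2, Egr1 and Egr3 are among the immediate early genes without an entry. The shares rest on 3 and 2 genes, and no excess was tested. The Ces5a window held neither.

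Immediate early genes were the list with the highest median in WT hearts. Of 31 listed genes in the tables, 28 passed the filter on low values. The log2 fold change of all 28 was above 0, as was that of 6699 of the 10886 genes tested. At the unadjusted p 22 of the 28 were higher and 0 lower, against 10.3% and 5.14% of all genes, and 7 did not overlap, against 5.93%. The median was 1.43, against 0.08 for all genes. Csrnp1, Fosb and Gadd45b reached 5 TPM in 5-week libraries alone, so their direction was set by the filter. They are included in the counts above and add no support there. No member passed the adjusted test.

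The members with the smallest p were transcription factors. Klf4, a zinc finger factor of vessel wall and stem cells, stood at 40.7, 65.2, 61.1 and 41.8 TPM at 5 weeks, against 29.3, 25.7, 23.8 and 31.9 TPM at 2 weeks (log2 fold change 0.87 ± 0.18). Myc, which drives growth and ribosome synthesis, stood at 20.7, 40.7, 63.0 and 23.3 TPM at 5 weeks, against 14.6, 9.31, 12.2 and 9.36 TPM at 2 weeks (1.50 ± 0.32). In both genes all 5-week libraries lay above all 2-week libraries. Ier2, a nuclear early response protein, stood at 7.08, 28.5, 12.6 and 22.1 TPM at 5 weeks, against 3.60, 5.88, 5.87 and 3.21 TPM at 2 weeks (1.59 ± 0.37), again with no overlap. Klf6 held 40.9 to 57.4 TPM at 5 weeks and 26.8 to 38.0 TPM at 2 weeks (0.65 ± 0.16).

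The larger differences came with a wide spread, and library 1 of 5 weeks lay apart from the other 3. The following 6 genes were chosen after their values were seen. Junb, a subunit of the AP-1 factor, stood at 11.7, 96.1, 64.4 and 74.8 TPM at 5 weeks, against 14.9, 5.54, 9.35 and 7.70 TPM at 2 weeks (2.34 ± 0.61). Egr1, a zinc finger factor induced by stretch and growth factors, stood at 19.9, 478, 107 and 378 TPM at 5 weeks, against 36.2, 10.7, 12.9 and 14.7 TPM at 2 weeks (3.02 ± 0.96). In both genes library 1 of 5 weeks lay within the 2-week range and the other 3 lay above it. Nr4a1, an orphan nuclear receptor, held 19.8, 310, 56.0 and 54.1 TPM at 5 weeks, against 5.74 to 15.4 TPM at 2 weeks (2.69 ± 0.73). Dusp1, a phosphatase that switches off MAP kinases, held 46.0, 180, 84.4 and 98.3 TPM at 5 weeks, against 33.0 to 47.2 TPM at 2 weeks (1.20 ± 0.34). Zfp36, which speeds the decay of cytokine mRNAs, held 31.5, 105, 97.5 and 227 TPM at 5 weeks, against at most 34.9 TPM at 2 weeks (1.70 ± 0.50). The same library, 1 of 5 weeks, was the lowest of its group in all 5 of these genes and in Fos, which stood at 1.18, 29.8, 12.1 and 97.4 TPM at 5 weeks and at 1.04 to 5.57 TPM at 2 weeks.

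**Figure D1:**
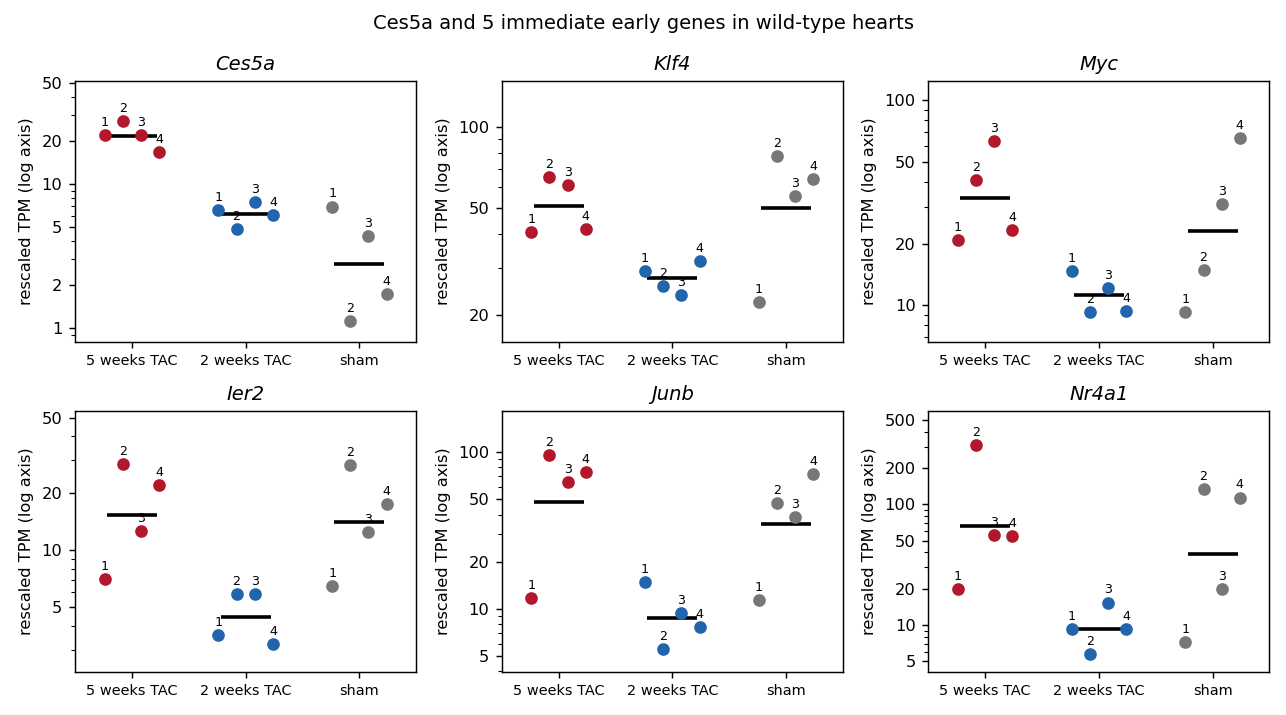
Rescaled TPM (log axes) of Ces5a and 5 immediate early genes in the 4 libraries of WT 5 weeks TAC (red), WT 2 weeks TAC (blue) and WT sham (grey). Numbers are replicate numbers and bars are geometric means. Ces5a separates 5 weeks (16.6 to 27.3 TPM) from 2 weeks (4.83 to 7.53 TPM), whereas Junb at 5 weeks runs between 11.7 and 96.1 TPM, with library 1 among the 2-week libraries.

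Sham hearts did not sit with the 2-week hearts in these genes. Klf4 stood at 22.4, 77.8, 55.5 and 64.0 TPM and Junb at 11.4, 47.1, 38.6 and 72.1 TPM in sham libraries, so in both genes sham libraries 2, 3 and 4 lay above all 2-week libraries and sham library 1 did not. As the median deviation of the 28 genes from their mean over the 8 TAC libraries, in log2, the list stood at -0.27, 1.29, 0.77 and 0.47 at 5 weeks and at -0.27, -0.95, -0.75 and -0.89 at 2 weeks. Sham libraries stood at -0.66, 0.92, 0.52 and 1.12 on the same scale. Library 1 of 5 weeks and library 1 of the sham group were low, the other sham and 5-week libraries were high, and the 4 libraries of 2 weeks were low.

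Leaving out library 1 of 5 weeks raised the calls from limma to 36 genes higher (0.331%) and 84 lower (0.772%). Of the 36, 11 were immediate early genes, and 25 of the 28 were then higher at the unadjusted p, against 11.6% of all genes. Library 1 was the lowest 5-week library in this list, so leaving it out raised the list by construction. These counts are therefore no separate support. Csrnp1, Fosb and Gadd45b, whose direction the filter set, are among the 11. Junb had the smallest adjusted p, at 0.0190 with a log2 fold change of 2.99 ± 0.28. Without the 3 libraries whose Vcp went against the label, 15 of the 28 were higher at the unadjusted p, against 9.12% of all genes, and the median was 1.04. Without the libraries WT 5 weeks TAC 4 and WT 2 weeks TAC 1, the median was 1.50 and Nr4a3 passed the adjusted test. That omission was chosen after the values were seen, and WT 2 weeks TAC 1 held the highest Nr4a3 of its group.

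**Figure D2:**
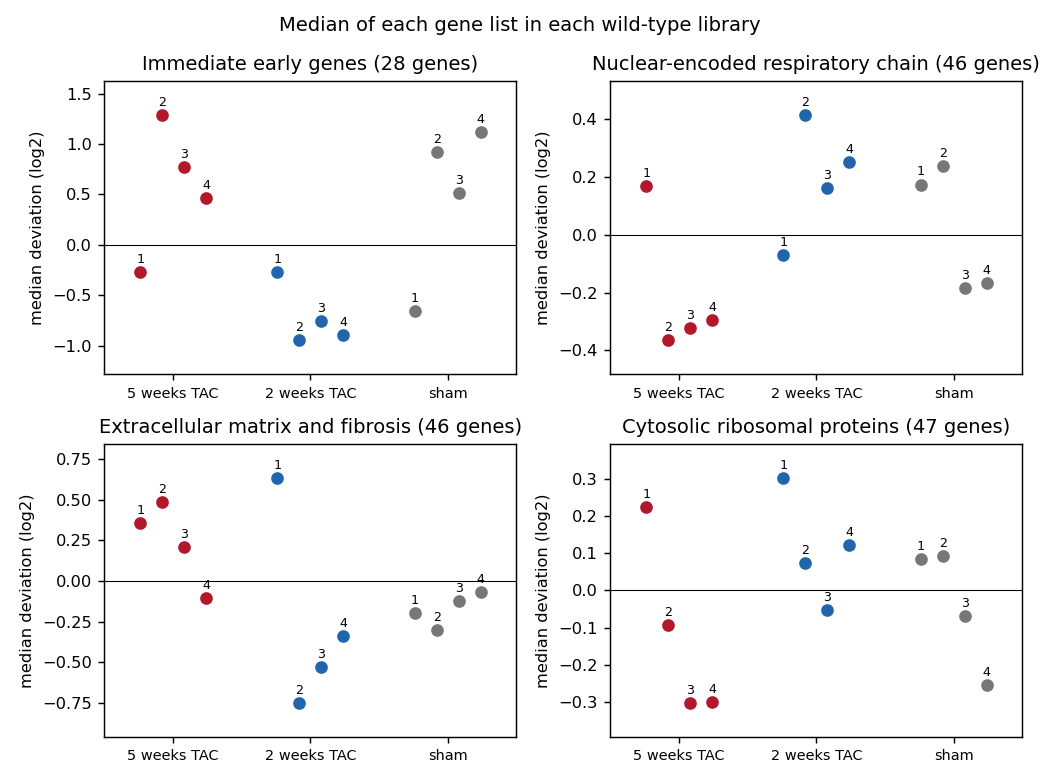
Median deviation, in log2, of the tested members of 4 gene lists from their mean over the 8 TAC libraries, for each library of WT 5 weeks TAC (red), WT 2 weeks TAC (blue) and WT sham (grey), numbered by replicate. In the immediate early panel 3 libraries of 5 weeks lie between 0.47 and 1.29 and library 1 at -0.27, and in the respiratory chain panel the same 3 lie between -0.37 and -0.29 and library 1 at 0.17.

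Nuclear genes of the respiratory chain stood lower at 5 weeks as a list. The chain passes electrons from NADH to oxygen and uses the proton gradient to make ATP. All 46 listed subunits were tested, and the median was -0.38. A log2 fold change below 0 was found for 42 of them, against 4187 of the 10886 genes tested. At the unadjusted p 18 were lower and 0 higher, against 5.14% and 10.3% of all genes, and 9 did not overlap on the lower side, against 1.52%. The 46 transcripts summed to between 55390 and 84215 TPM at 5 weeks, between 82765 and 107368 TPM at 2 weeks and between 67307 and 86552 TPM in sham hearts. The 5-week and sham sums overlapped, and libraries 2, 3 and 4 of 2 weeks lay above both. The mean was lower than in sham hearts for 41 of the 46 at 5 weeks and for 15 at 2 weeks. The share of all genes below sham was not computed. A mean below sham at 5 weeks was not particular to this list. It was found for 36 of 40 genes of fatty acid uptake and oxidation, 30 of 32 of glycolysis and glucose uptake and 17 of 17 endothelial markers. At 2 weeks these counts were 33, 25 and 16. Matrix genes differed, with 9 of 46 below sham at 5 weeks.

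The smallest p-values were those of small accessory subunits. Cox7c, of cytochrome c oxidase (complex IV), stood at 3506, 2405, 1586 and 1909 TPM at 5 weeks, against 4613, 5179, 4263 and 4001 TPM at 2 weeks (-0.999 ± 0.24). Uqcrb, of complex III, stood at 4022, 2809, 1988 and 2422 TPM at 5 weeks, against 4808, 5656, 5206 and 4159 TPM at 2 weeks (-0.86 ± 0.22). Cox7a1, the heart and muscle form of a complex IV subunit, stood at 7836, 5512, 4754 and 5588 TPM at 5 weeks, against 9886, 12285, 9289 and 7988 TPM at 2 weeks (-0.74 ± 0.21). In all 3, and in Cox6c of complex IV (-0.85 ± 0.23), every 5-week library lay below every 2-week library, and library 1 was the highest of the 5-week group. Sham hearts held Cox7a1 at 4684 to 5409 TPM and Cox7c at 2369 to 3366 TPM, below every 2-week library. Uqcrc1, a core subunit of complex III, went the other way, at 590 to 906 TPM at 5 weeks and 413 to 679 TPM at 2 weeks (0.40 ± 0.21).

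Without library 1 of 5 weeks, 7 of the 46 passed the adjusted test on the lower side. These were Cox7c, Uqcrb, Atp5c1, Cox5a, Cox7b, Cycs and Ndufs4. At the unadjusted p 28 were lower, against 10% of all genes. Library 1 was the highest 5-week library in this list, so leaving it out lowered the list by construction. Without the 3 libraries whose Vcp went against the label, 4 were lower at the unadjusted p, against 1.29% of all genes, with a median of -0.32. Under quantile normalization 11 were lower and 1 higher, against 8.22% and 6.93%, and the median was -0.18. Transcript length moved with the fold change. Among the 2178 shortest of the genes tested (216 to 2598 bases of exon) 6.66% were higher and 12.9% lower at the unadjusted p, with a median log2 fold change of -0.05. Among the 2177 longest (8066 to 123179 bases) 11.1% were higher and 1.38% lower, with a median of 0.12. The rank correlation of fold change with exon length across the 10886 genes, which are not independent of each other, was 0.17. Respiratory chain genes had a median exon length of 1870 bases, and the part of length in their level was not tested.

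**Figure D3:**
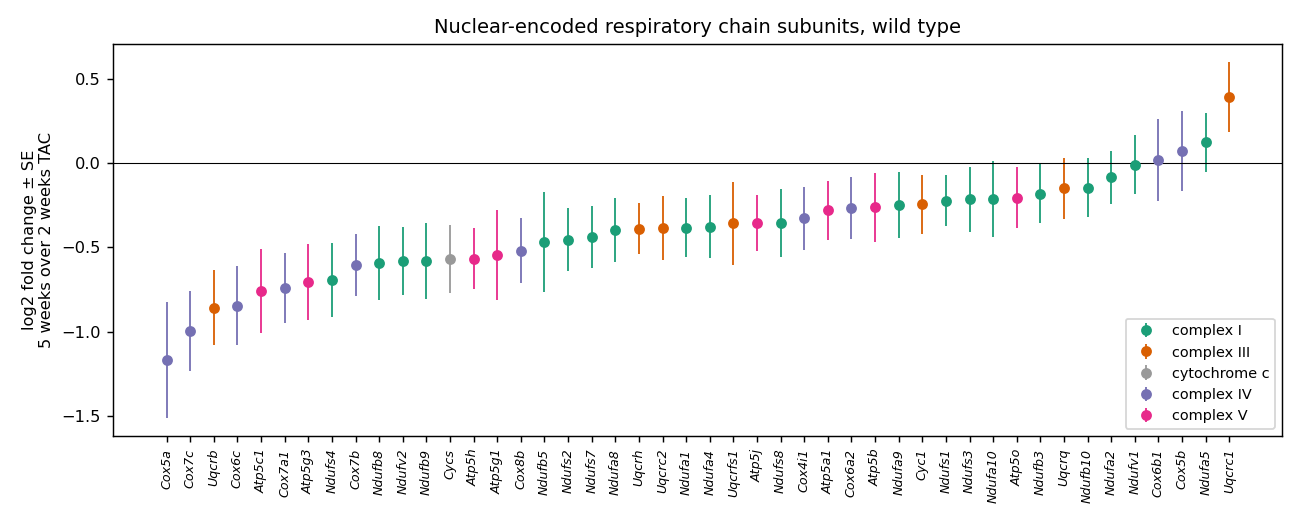
Log2 fold change, 5 weeks over 2 weeks TAC, of the 46 nuclear-encoded subunits of the respiratory chain in WT hearts, ordered by value and coloured by complex, with standard errors from limma. Of the 46 points 42 lie below 0, and Cox5a, Cox7c and Uqcrb stand at the low end and Uqcrc1 at the high end.

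Other mitochondrial genes showed smaller shares. Of 22 tested genes of the tricarboxylic acid cycle 4 were lower at the unadjusted p (Suclg1, Sdha, Idh3a and Sdhd), and 0 higher. Of 40 genes of fatty acid uptake and oxidation 5 were lower and 1 higher, with a median of -0.01. Acot13, a mitochondrial thioesterase, stood at 609 to 1039 TPM at 5 weeks and 1008 to 1419 TPM at 2 weeks (-0.61 ± 0.20). The mitochondrial pyruvate carrier stood lower in both of its subunits. Mpc2 stood at 608, 366, 259 and 276 TPM at 5 weeks, against 633, 845, 745 and 736 TPM at 2 weeks (-1.05 ± 0.25), with no overlap. Mpc1 stood at 467 to 1140 TPM at 5 weeks and 729 to 1317 TPM at 2 weeks (-0.71 ± 0.29), with library 1 of 5 weeks inside the 2-week range. Both subunits belong to the 32 tested genes of glucose use, of which they were the 2 lower at the unadjusted p while 3 were higher, against 5.14% and 10.3% of all genes. Hk1, a hexokinase, averaged 143 ± 22.3 TPM at 5 weeks and 94.4 ± 3.88 TPM at 2 weeks (SD, n = 4 each, log2 fold change 0.58 ± 0.14), and Pkm, the fetal and muscle pyruvate kinase gene, stood at 405 to 566 TPM at 5 weeks and 276 to 347 TPM at 2 weeks (0.55 ± 0.17). Both separated the groups, and both stood in the sham range or near it at 5 weeks (Hk1 99.7 to 188 TPM, Pkm 522 to 628 TPM in sham hearts).

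Extracellular matrix genes were mostly above 0. Of 52 listed, 46 were tested, and 39 of these were above 0, as were 6699 of the 10886 genes tested. At the unadjusted p 13 were higher and 0 lower, against 10.3% and 5.14% of all genes, and the median was 0.59. Only 2 of the 46, Col4a2 and Cilp, did not overlap on the higher side, against 5.93% of all genes. On the lower side 0 did not overlap, against 1.52%. Col4a2, a chain of basement membrane collagen, stood at 196, 149, 204 and 125 TPM at 5 weeks, against 97.8, 72.4, 91.4 and 70.7 TPM at 2 weeks (1.00 ± 0.19), with no overlap. Cilp, a matrix protein of activated cardiac fibroblasts, stood at 7.14, 27.4, 6.96 and 11.2 TPM at 5 weeks, against 3.28, 1.98, 3.23 and 3.91 TPM at 2 weeks (1.60 ± 0.37). It reached 5 TPM in 5-week libraries alone, so its direction was set by the filter, and it is among the 13 higher. Col6a2, of the collagen around cells, held 63.1 to 78.0 TPM at 5 weeks and 25.5 to 63.3 TPM at 2 weeks (0.85 ± 0.23). Loxl2, which cross-links collagen, held 16.3 to 28.5 TPM at 5 weeks and 7.45 to 16.5 TPM at 2 weeks (0.86 ± 0.25).

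Library 1 of 2 weeks, the atrial-rich one, was high in the matrix genes. Col1a1, the main chain of fibrillar collagen, stood at 79.7, 73.9, 45.6 and 69.7 TPM at 5 weeks, against 122, 17.8, 28.7 and 36.0 TPM at 2 weeks (0.74 ± 0.50), so the groups overlapped through that library. Sham hearts held 26.6 to 35.3 TPM of Col1a1. The list's median deviation was 0.64 in that library, against -0.75, -0.53 and -0.34 in the other libraries of 2 weeks. Without it and library 4 of 5 weeks, 35 of the 46 matrix genes were higher at the unadjusted p, against 11.8% of all genes. Of the 46, 45 were above 0, as were 6776 of the 10886 genes tested, and Vcan and Col4a2 passed the adjusted test. The omitted libraries were the highest of 2 weeks and the lowest of 5 weeks in this list, so their removal raised the difference by construction. Without the 3 libraries whose Vcp went against the label, 21 were higher, against 9.12% of all genes, and the median was 0.65. In bulk tissue a change in the number of cells of a type and a change in RNA per cell cannot be told apart.

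Markers of the cells that make or contact this matrix gave different shares. Myofibroblast markers were higher in 5 of 10 tested, with Cilp, whose direction the filter set, among the 5, and had a median of 0.90. They include Thbs4, a matricellular protein, at 15.2, 61.9, 21.3 and 6.30 TPM at 5 weeks, against 4.37, 4.74, 5.24 and 10.7 TPM at 2 weeks (1.55 ± 0.58). Library 4 of 5 weeks lay inside the 2-week range. General fibroblast markers were higher in 3 of 14 and lower in 1, with a median of 0.25. Smooth muscle and pericyte markers were higher in 5 of 12, and 4 of those did not overlap. Cspg4, the pericyte proteoglycan NG2, stood at 8.82, 12.5, 11.5 and 9.31 TPM at 5 weeks, against 5.76, 4.45, 6.08 and 5.62 TPM at 2 weeks (0.83 ± 0.17). Tagln (0.58 ± 0.18), Pdgfrb (0.44 ± 0.14) and Mylk (0.37 ± 0.13) separated the groups as well. The summed level of the mural list ran between 1718 and 2242 TPM at 5 weeks, 1627 and 1744 TPM at 2 weeks and 1985 and 2075 TPM in sham hearts.

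Endothelial markers were higher in 3 of 17 and lower in 0, against 10.3% and 5.14% of all genes. Their median was 0.14, and 4 of the 17 were below 0. Their summed level was 1936 to 3036 TPM at 5 weeks, a range that spans the 2216 to 2447 TPM of 2 weeks. Robo4, a receptor that keeps vessels tight, stood at 26.2 to 37.1 TPM at 5 weeks and 17.5 to 20.9 TPM at 2 weeks (0.68 ± 0.15). Esam (0.51 ± 0.17) separated the groups and Cdh5 (0.37 ± 0.15) did not. Macrophage markers were lower in 1 of 13, namely Lyz2, lysozyme, at 166, 128, 112 and 152 TPM at 5 weeks, against 432, 212, 147 and 273 TPM at 2 weeks (-0.83 ± 0.29). Their summed level was 455 to 487 TPM at 5 weeks and 410 to 1044 TPM at 2 weeks, highest in library 1. Ventricular cardiomyocyte markers were higher or lower in 0 of 12, with a median of 0.00 and sums of 81980 to 99277 TPM at 5 weeks and 73884 to 100841 TPM at 2 weeks. None of the B cell markers passed the filter. Of 11 neutrophil markers 3 passed it (S100a8, S100a9 and Cxcr2), 0 were higher or lower at the unadjusted p, and the median was 0.96. The 11 summed to 41.1, 143, 95.6 and 59.6 TPM at 5 weeks and to 41.5 to 57.9 TPM at 2 weeks, with 48.3, 38.5, 254 and 188 TPM in sham libraries. Library 1 of 5 weeks was low and libraries 2 and 3 were high in this sum, as in the immediate early genes. Sham library 1 was low and sham libraries 3 and 4 were high in both. Library 4 of 5 weeks (59.6 TPM) and sham library 2 (38.5 TPM) differed. Their sums were near or below the 2-week range, while their immediate early medians were 0.47 and 0.92. The part of neutrophils in those genes was not tested.

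Classic markers of hypertrophy did not separate the times as a list. Of 23 tested, 5 were higher and 0 lower at the unadjusted p, and the median was 0.27. Myh7, the slow fetal myosin heavy chain, stood at 683, 1077, 982 and 689 TPM at 5 weeks, against 507, 696, 542 and 508 TPM at 2 weeks (0.59 ± 0.20), and sham hearts held more, at 978 to 1457 TPM. The fast adult chain Myh6 stood at 10476 to 16380 TPM at 5 weeks and 9807 to 12476 TPM at 2 weeks (0.27 ± 0.20). Myh7 made up 6.22% ± 2.22 of both chains at 5 weeks and 4.85% ± 0.40 at 2 weeks (SD, n = 4 each, two-sided exact permutation p = 0.314, adjusted 0.44 over 7 ratios). The smallest p that 4 against 4 libraries allow is 0.0286. Atp2a2, the calcium pump of the sarcoplasmic reticulum, stood at 2627 to 4198 TPM at 5 weeks and 3045 to 4505 TPM at 2 weeks (-0.24 ± 0.20).

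Several load-responsive markers differed widely between libraries of the same group. Acta1, the skeletal actin that is re-expressed under load, stood at 2471, 3949, 3017 and 224 TPM at 5 weeks, against 263, 519, 630 and 766 TPM at 2 weeks (1.66 ± 0.87, adjusted p = 0.395 from limma). Libraries 1 to 3 of 5 weeks lay above all 2-week libraries, and library 4 lay below them. Acta1 was 15.2% ± 9.85 of Acta1 and Actc1 together at 5 weeks and 3.59% ± 1.51 at 2 weeks (SD, n = 4 each, exact permutation p = 0.114, adjusted 0.4). Without libraries WT 5 weeks TAC 4 and WT 2 weeks TAC 1, limma called 17 genes higher (0.156%) and 1 lower (0.00919%). Acta1 was among the higher ones (2.29 ± 0.23, adjusted p = 0.0149), with the load-responsive repeat protein Ankrd23 (1.26 ± 0.20), the intercalated disc protein Xirp1 (1.31 ± 0.15), the stress cytokine Gdf15 (2.32 ± 0.28) and the growth factor Hbegf (1.52 ± 0.18). In that comparison 14 of the 23 hypertrophy markers were higher at the unadjusted p and 1 lower, against 11.8% and 4.26% of all genes, with a median of 0.64. This omission was chosen after the values were seen. It took out the lowest 5-week library for Acta1, Ankrd23 and Xirp1 and the highest 2-week library for Xirp1, Hbegf and Gdf15. These calls and counts therefore follow in part from the choice and are no separate support.

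The natriuretic peptides, hormones that the stretched heart releases, were not separated by time. Nppa stood at 679, 1021, 352 and 58.8 TPM at 5 weeks, against 15038, 97.4, 232 and 260 TPM at 2 weeks (-0.65 ± 1.77). The 15038 TPM belong to library 1 of 2 weeks, and without it the log2 fold change was 0.94. Nppb stood at 934, 640, 565 and 39.1 TPM at 5 weeks, against 1003, 170, 324 and 166 TPM at 2 weeks (0.14 ± 1.06). Sham hearts held 59.2 to 156 TPM of Nppa and 88.3 to 414 TPM of Nppb. In library 4 of 5 weeks Acta1, Nppa and Nppb were each below every other TAC library of WT label and below every sham library.

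**Figure D4:**
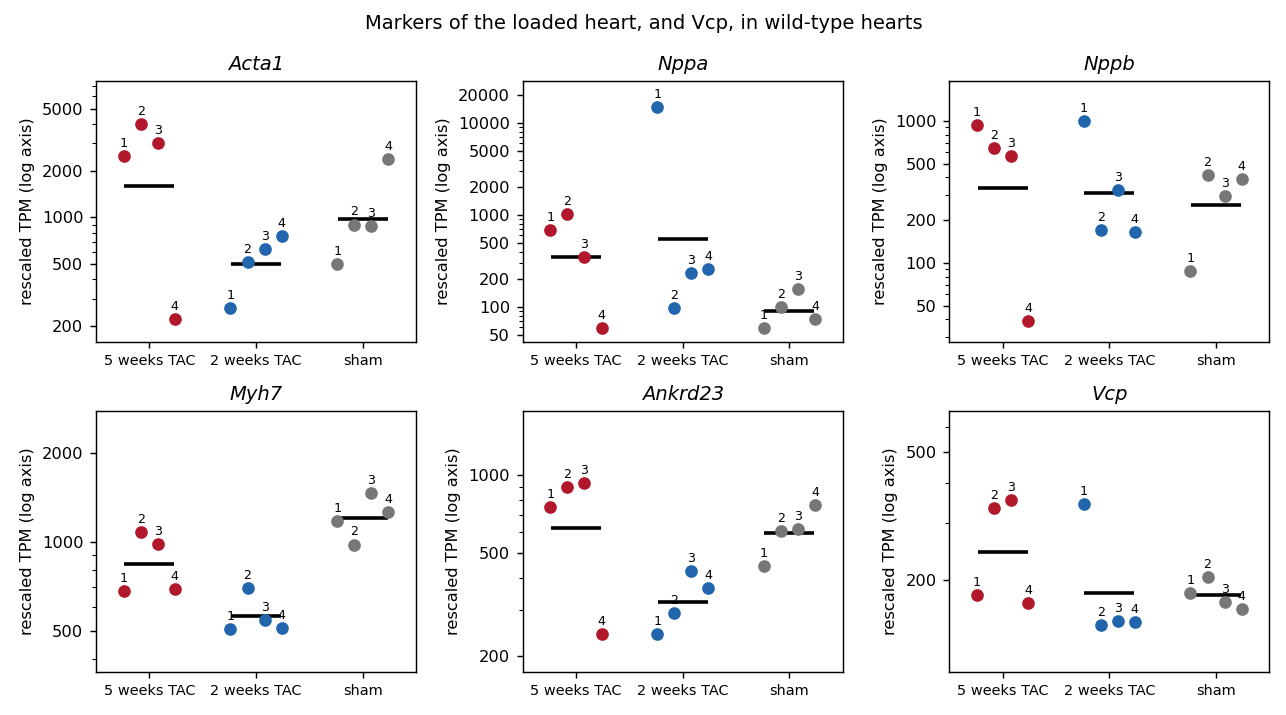
Rescaled TPM (log axes) of 5 load-responsive genes and Vcp in the libraries of WT 5 weeks TAC (red), WT 2 weeks TAC (blue) and WT sham (grey), numbered by replicate, with geometric means as bars. Library 4 of 5 weeks is the lowest TAC library for Acta1 (224 TPM), Nppa (58.8 TPM) and Nppb (39.1 TPM), and library 1 of 2 weeks is the highest for Nppa (15038 TPM).

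Genes of the sarcomere and Z-disc were higher in 5 of 32 and lower in 1. Flnc, a filamin that links the Z-disc to actin, stood at 297, 504, 473 and 200 TPM at 5 weeks, against 262, 130, 132 and 171 TPM at 2 weeks (1.05 ± 0.32). Mybpc3, cardiac myosin-binding protein C, stood at 979, 935, 1196 and 769 TPM at 5 weeks, against 516, 754, 690 and 731 TPM at 2 weeks (0.52 ± 0.19), and sham hearts held 1087 to 1320 TPM. Mybpc3 separated the 5-week from the 2-week libraries, and Flnc did not. Kcnd2, a channel of the transient outward potassium current, stood at 7.22 to 19.3 TPM at 5 weeks and 20.2 to 28.7 TPM at 2 weeks (-1.01 ± 0.27), without overlap.

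Among regulators of inflammation and of the circadian clock, Nfkbia and Per1 were lowest at 5 weeks in library 1. Of 28 cytokine and NF-kappaB genes 6 were higher, against 10.3% of all genes, with a median of 0.30. Log2 fold changes were above 0 for 25 of the 28, against 6699 of the 10886 genes tested. Cxcl1, among the 6, reached 5 TPM in 5-week libraries alone, so its direction was set by the filter. Nfkbia, the inhibitor that NF-kappaB itself induces, stood at 26.2, 58.3, 74.6 and 58.6 TPM at 5 weeks, against 28.3, 21.4, 19.1 and 22.5 TPM at 2 weeks (1.14 ± 0.28). Per1, a clock repressor that stress hormones also induce, stood at 34.7, 112, 87.5 and 102 TPM at 5 weeks, against 36.1, 43.6, 25.6 and 35.8 TPM at 2 weeks (1.12 ± 0.33). Library 1 of 5 weeks lay in the 2-week range for both, and without it both passed the adjusted test (Nfkbia 1.45 ± 0.17, Per1 1.50 ± 0.19). Leaving out the lowest 5-week library raised both by construction. The NF-kappaB subunits Nfkb2 (0.48 ± 0.14) and Rela (0.46 ± 0.14) separated the groups in all libraries. Of 19 clock genes 5 were higher and 0 lower, among them Cry2 (0.68 ± 0.21), a partner of Per1.

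Genes of protein synthesis and turnover gave values in both directions. Of 47 tested ribosomal proteins 10 were lower and 3 higher, with a median of -0.26. Rpl41 was lower in every 5-week library (-0.73 ± 0.26), whereas Rpl34 stood at 51.4, 52.7, 62.8 and 212 TPM at 5 weeks, against 19.9 to 32.6 TPM at 2 weeks (1.58 ± 0.42). Ribosomal protein genes have many processed copies, so the split of reads among them is uncertain. Of 37 proteasome subunits 5 were lower and 2 higher, against 5.14% and 10.3% of all genes. By overlap the balance was the other way. The groups did not overlap for 6 of the 37 on the higher side, against 5.93% of all genes, and for 0 on the lower side, against 1.52%. Psmd4, a ubiquitin receptor of the proteasome, stood at 91.0 to 130 TPM at 5 weeks and 66.2 to 77.8 TPM at 2 weeks (0.51 ± 0.15), and Psma1, of its core, at 79.0 to 186 TPM at 5 weeks and 160 to 189 TPM at 2 weeks (-0.62 ± 0.23). Of 21 tested members of the VCP list 2 were higher (Aspscr1 and Nploc4) and 1 lower (Ubxn2a), and Vcp itself had a log2 fold change of 0.43 ± 0.34.

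The genes with the smallest p outside these lists were few and of mixed role. Zc3h12a, an RNase that degrades cytokine mRNAs, stood at 8.99, 10.4, 10.9 and 12.4 TPM at 5 weeks, against 4.88, 4.72, 5.34 and 4.09 TPM at 2 weeks (1.01 ± 0.16). Irx3, a factor of the ventricular conduction system, stood at 7.71 to 20.3 TPM at 5 weeks and 2.93 to 4.34 TPM at 2 weeks (1.54 ± 0.28), a direction that the filter set, and at 9.42 to 21.4 TPM in sham hearts. Sox17, an arterial endothelial factor (1.35 ± 0.26), Rasip1, a regulator of vessel lumens (1.13 ± 0.22), and Dot1l, a histone methyltransferase (0.78 ± 0.14), did not overlap between the groups. On the lower side Nmb, the peptide neuromedin B, stood at 3.58, 3.33, 2.94 and 3.20 TPM at 5 weeks, against 9.99, 10.8, 8.94 and 5.99 TPM at 2 weeks (-1.20 ± 0.20). It reached 5 TPM in 2-week libraries alone, so its direction was set by the filter. Hsd11b1, which regenerates active glucocorticoid, held 5.41 to 16.8 TPM at 5 weeks and 21.6 to 32.3 TPM at 2 weeks (-1.22 ± 0.30). The adjusted p was 0.243 for Zc3h12a, Irx3, Sox17, Rasip1, Dot1l and Nmb, and 0.268 for Hsd11b1.

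More genes with small p had varied roles. Nmt1, which attaches myristate to proteins, stood at 106, 141, 102 and 115 TPM at 5 weeks, against 41.4, 30.5, 40.7 and 76.1 TPM at 2 weeks (1.35 ± 0.24), with 31.6 to 51.6 TPM in sham hearts. As in Ces5a, every 5-week library stood above every library of both other groups. Kremen1, a receptor that removes Wnt co-receptors, stood at 43.0 to 60.8 TPM at 5 weeks and 27.0 to 36.0 TPM at 2 weeks (0.76 ± 0.15), and at 50.1 to 71.7 TPM in sham hearts. Cyth1, an exchange factor for ARF proteins (0.84 ± 0.16), and Hist1h1c, a linker histone (0.80 ± 0.16), were also higher at 5 weeks in every library, and sham hearts lay within or above the 5-week range in Cyth1. On the lower side Taf12, a subunit of the general transcription factor TFIID, stood at 32.8 to 44.6 TPM at 5 weeks and 50.8 to 76.0 TPM at 2 weeks (-0.85 ± 0.17). Eya1, a developmental transcription cofactor, stood at 2.85 to 3.96 TPM at 5 weeks and 5.56 to 9.31 TPM at 2 weeks (-0.90 ± 0.20), with 2.17 to 4.26 TPM in sham hearts. Its direction was likewise set by the filter, which it passed through 2-week libraries alone. Cox16, which helps assemble cytochrome c oxidase, stood at 52.3 to 82.2 TPM at 5 weeks and 96.6 to 128 TPM at 2 weeks (-0.72 ± 0.17). Neither Taf12 nor Cox16 overlapped between the TAC groups.

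The remaining lists held few genes past the unadjusted p. Of 41 chaperone and ER stress genes 5 were lower and 1 higher. Hspe1, the mitochondrial co-chaperonin, stood at 247 to 319 TPM at 5 weeks and 363 to 516 TPM at 2 weeks (-0.61 ± 0.17), and Hsph1, a cytosolic chaperone, at 19.2 to 37.4 TPM at 5 weeks and 43.4 to 58.7 TPM at 2 weeks (-0.70 ± 0.21), both without overlap. Of 24 genes of adrenergic, angiotensin, endothelin and cyclic GMP signalling 4 were higher and 0 lower. Among them Nos3, the endothelial nitric oxide synthase, stood at 25.4 to 53.8 TPM at 5 weeks and 13.1 to 25.2 TPM at 2 weeks (0.82 ± 0.25), and Ednrb, an endothelin receptor, at 15.4 to 30.4 TPM at 5 weeks and 10.9 to 15.6 TPM at 2 weeks (0.82 ± 0.21). Of 21 calcineurin and CaMKII genes 3 were higher and 0 lower, and the smallest p among them was that of Nfatc2, a calcineurin-driven transcription factor (0.57 ± 0.16). Of 23 calcium handling genes 1 was higher and 0 lower, of 28 interferon genes 2 and 0, of 31 autophagy and lysosome genes 3 and 0, and of 33 antioxidant enzymes 2 and 3. Over all genes the shares were 10.3% higher and 5.14% lower, and no member of these lists passed the adjusted test.

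The same interval in VCP TG hearts gave the genotype comparison. Fitted over the 14 TAC libraries and 11313 genes, the difference between the WT and the VCP TG change passed the adjusted test for 0 genes (0%), and 263 (2.32%) had an unadjusted p under 0.05. In VCP TG hearts themselves limma called 25 genes (0.221%), of which 24 (0.212%) were higher and 1 (0.00884%) lower. A WT value of the same sign was found for 24 of the 25, and 6699 of the 10886 genes tested in WT were above 0. The 25 include Per1 (2.31 ± 0.35), Ier2 (2.43 ± 0.40) and the endothelial marker Esam (1.17 ± 0.21). Immediate early genes had a median of 1.43 in WT hearts and 1.38 in VCP TG hearts, where 21 of 28 were higher at the unadjusted p, against 15% of all genes. The respiratory chain had a median of -0.38 in WT hearts and -0.11 in VCP TG hearts, where 5 of 46 were lower, against 1.91% of all genes. For Ces5a the WT minus VCP TG difference was 1.30 ± 0.33, with an adjusted p of 1.00 from limma. The WT and VCP TG libraries of each time lie in the same table, so a shift between the tables that both genotypes share cancels in the difference. Such a shift would also give both genotypes values of the same sign, so their likeness cannot be told apart from it. Libraries 2 and 3 of WT 5 weeks and 1 of WT 2 weeks carried Vcp at transgenic levels, and 1 VCP TG library of 5 weeks held 114 TPM, which is against its label as well. The genotype difference was not refitted without these libraries.

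**Figure D5:**
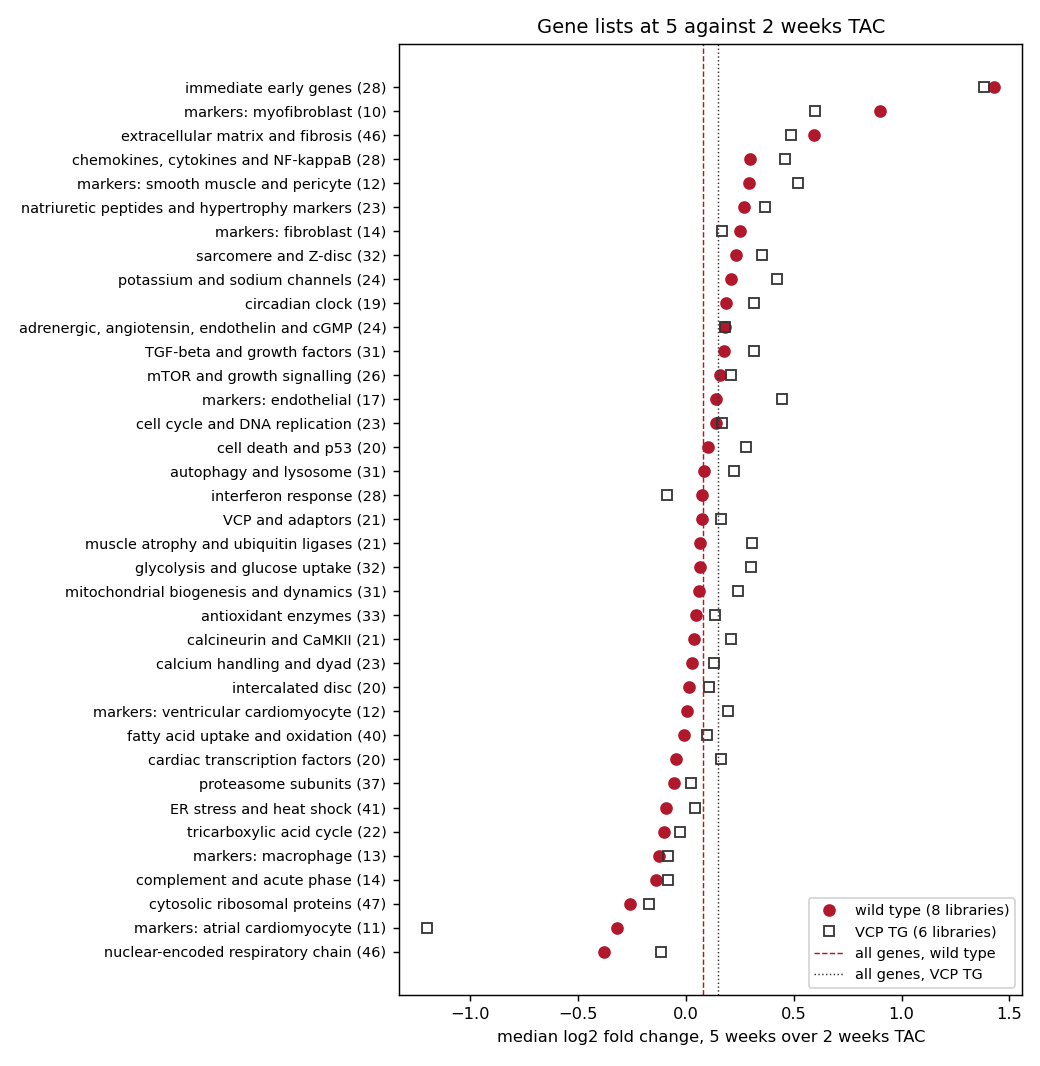
Median log2 fold change, 5 weeks over 2 weeks TAC, of each gene list with at least 10 tested members (number tested in brackets), in WT hearts (filled circles, 8 libraries) and VCP TG hearts (open squares, 6 libraries). Vertical lines are the medians of all genes, 0.08 in WT and 0.15 in VCP TG hearts. Immediate early genes lie at the top in both (1.43 and 1.38), and the respiratory chain is lowest in WT hearts (-0.38).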

How the data were processed

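The authors deposited 1 table of TPM for the 7 libraries of 5 weeks and 1 for the 15 libraries of 2 weeks. The unit was read from the values, since every column sums to 1000000. Total RNA from left ventricle was extracted with a miRNeasy kit and made into TruSeq Stranded mRNA libraries, per the labels' protocols. Per the submitters' processing notes, the tools used were Trimmomatic 0.35, kallisto 0.43.1, STAR 2.5.4b and DESeq2 and the build was GRCm38, without saying which made the TPM. TPM keeps no depth, so a low value may rest on few reads and no counting interval can be given. TPM sums to a fixed total, so a change in abundant transcripts shifts all others.

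Columns were matched to samples by name. Of 30735 identifiers, 29995 were found in GENCODE M21 (GRCm38), which gave names, types and positions. The 21397 nuclear protein-coding genes were rescaled to 1000000 in each library. Of 19565 named ones, the 10886 with at least 5 rescaled TPM in at least 3 of the 8 libraries were tested, and 8677 were not. R 4.3.3 and limma 3.58.1 tested log2(rescaled TPM + 1), with a variance trend, robust moderation and Benjamini-Hochberg adjustment at 0.05, a procedure first tried on simulated data. The genotype difference was an interaction contrast over the 14 TAC libraries. Ratios within libraries were compared by two-sided exact permutation of 4 against 4. Promoters are RefSeq's for GRCm38.p6.

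The members and gene lists were chosen with earlier results of these data known. Named genes were 8 fixed markers, up to 15 genes per direction past the threshold or, failing that, with the smallest p, and up to 4 members of each list by p. Of the listed genes, Rps12 and Rps27 were at 0 in all 8 libraries. The labels do not tie libraries to animals, so the p-values cover spread among libraries, which may be technical. Replicate numbers recur between the groups. The correlation across genes of the deviations of libraries with the same number ran from -0.27 to -0.02, so the numbers were not treated as pairs. Alternatives covered the pseudocount, the filter, the scaling, the variance model, the libraries in the fit, a replicate block and leaving out libraries. Some listed genes are not reported here.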

Additional observations from a re-analysis of the deposited data

Results flagged for a closer look

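In each group of 4 libraries, the highest or lowest library was flagged where its gap to the nearest other exceeded Dixon's 95% critical value for 4 samples. This flagged 19 of 258 groups (7.36%), and chance flags about 1 in 20. The groups were those of the 122 genes named in the text and of the ratios. Some of these genes were named after their values were seen, and genes are not independent of each other. The counts of flags are therefore a description and no separate support. Library 1 of WT 2 weeks TAC accounted for 11 of the 19.

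In that library Vcp stood at 345 TPM (others 145 to 148), Nppa at 15038 TPM (97.4 to 260), Egr1 at 36.2 TPM (10.7 to 14.7) and the clock kinase gene Csnk1d at 83.3 TPM (60.7 to 63.5), each the highest of its group. Load- and stimulus-responsive genes were also highest there, with Xirp1 at 337 TPM (93.1 to 107), Hbegf at 44.0 TPM (11.5 to 14.1), Nr4a3 at 51.3 TPM (11.0 to 14.8) and Gdf15 at 6.44 TPM (1.25 to 2.09). It was the lowest of its group for Pkm, at 276 TPM (338 to 347), and for the ratio of Pln, which restrains the calcium pump, to Atp2a2, at 0.572 (0.737 to 0.762). Its ratio of atrial Myl7 to ventricular Myl2 was 0.504 (0.000634 to 0.00612).

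In library 4 of WT 5 weeks TAC Rpl34 stood at 212 TPM (others 51.4 to 62.8), the Y-linked Uty at 13.1 TPM (48.4 to 51.1) and Xirp1 at 93.1 TPM (242 to 258). Among the other libraries of WT 5 weeks TAC, Sox17 reached 27.9 TPM in library 3 (others 11.5 to 14.1), Nr4a1 reached 309.9 TPM in library 2 (19.8 to 56.0), Cycs, which encodes cytochrome c, reached 314 TPM in library 1 (180.3 to 191), and the ratio of Col3a1 to Col1a1, both fibrillar collagens, reached 4.74 in library 1 (1.62 to 2.08). In library 4 of WT 2 weeks TAC Thbs4 stood at 10.7 TPM (others 4.37 to 5.24).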

How the results depend on the processing

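The count of genes higher at the adjusted p was 1 in the reported test. It was 0 with no filter on low values, with a filter on 5 deposited TPM, with TPM as deposited, with median-of-ratios scaling, with quantile normalization and over all 22 libraries. It was also 0 without the 3 libraries whose Vcp goes against the label. Leaving out 1 library at a time gave 0 to 36 higher and 0 to 84 lower, with both maxima without WT 5 weeks TAC 1, and the cause was not tested. Without the libraries that stand apart, an alternative chosen after seeing the data, 17 were higher and 1 lower. The genotype difference stayed at 0 genes under its 5 alternatives, none of which left out a library. With a replicate block, for numbers that do not pair the samples, 0 were higher and 0 lower (924 and 463 at the unadjusted p, against 1119 and 560 without it).

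At the unadjusted p, median-of-ratios scaling gave 764 higher and 924 lower and quantile normalization 754 and 895. Leaving out WT 5 weeks TAC 3 gave 622 higher and 311 lower, and leaving out WT 2 weeks TAC 2 gave 719 and 294.

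Some directions reversed. Atp2a2 was 0.10 under quantile normalization. Nppa was 0.35 with array weights, 0.15 without the 3 Vcp libraries and 1.79 without the libraries that stand apart. Nppb was -0.12 without the 3 Vcp libraries. Leaving out 1 library at a time, Nppa ran from -1.48 to 0.94 and Nppb from -0.35 to 1.17. The difference of the within-library ratio, Nppb over Nppa, was -0.238 without the 3 Vcp libraries, -0.0574 without those that stand apart and -0.191 to 0.368 over single omissions. That of the within-library ratio, Myl7 over Myl2, was 0.00592 without the libraries that stand apart and -0.164 to 0.00388 over single omissions. TPM keeps no depth, so low genes such as Ces5a, Nmb and Cilp may rest on few reads.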
